A study of Mus musculus with 7 samples.

Results

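Chromatin accessibility at the genes of the NF-κB factors and their inhibitors was described in CD4+ T cells of mice infected with the nematode *Nippostrongylus brasiliensis*. The members were the 5 subunit genes Nfkb1, Nfkb2, Rel, Rela and Relb and the 3 inhibitor genes Nfkbia, Nfkbid and Tnfaip3. Every region of the deposited table that overlapped the GENCODE gene body or the 10 kb on either side of it was taken, whatever its values, which gave 152 of the 113820 regions. Nfkb1 held 68 of them, Rel 28, Nfkbid 13, Nfkb2 12, Nfkbia 11, Relb 10, Rela 6 and Tnfaip3 4.

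ATAC-seq counts the insertions of a transposase that cuts open chromatin. All mice were C57BL/6, had received 500 L3 larvae under the skin and were sampled on day 8, and each of the 7 libraries came from 50000 sorted cells. LN IL-4+ cells (n = 2) and lung IL-4+ cells (n = 3) were GFP+ CD4+ T cells of IL-4-4get mice, in which GFP marks cells with an active Il4 locus, from the mediastinal lymph node and the lung. Lung IFNγ+ cells (n = 2) were YFP+ CD4+ T cells from the lung of IFN-gamma GREAT mice, so the reporter line differed between the IL-4+ and the IFNγ+ populations and cannot be told apart from the cytokine. The labels number the replicates without naming a mouse, while the paper counts the replicates as mice from a single experiment. All p-values below measure the spread between these libraries, which may be technical, and not the spread between experiments. No population of uninfected or reporter-negative cells was analysed here, and each population was a mixture, in which fewer cells with an open site and less accessibility per cell cannot be told apart.

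NF-κB is a family of dimers of RelA, RelB, c-Rel, p50 and p52, which bind κB sites in DNA. In resting T cells they are held in the cytoplasm by IκB proteins, and signals from the antigen receptor, costimulatory receptors and cytokines free them by having the IκB protein degraded. Several of the genes that stop the response, among them Nfkbia and Tnfaip3, are themselves classical NF-κB targets, and p50 is known to be needed for Gata3 induction and type 2 responses in the airways.

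The 7 libraries fell into 2 classes by the spread of their counts, which cut across the populations and which no label names. Insertion counts rebuilt from the table came to between 14005923 and 91681969 per library, with a median region at 53 to 176. The interquartile range of the log2 rebuilt counts over regions was 1.64 to 1.73 in replicate 1 of the LN IL-4+ cells and in replicates 2 and 3 of the lung IL-4+ cells, here called narrow, and 2.87 to 3.05 in the other 4 libraries, here called wide. The narrow libraries had 14005923 to 23564412 rebuilt insertions and the wide ones 39068158 to 91681969, so class and depth cannot be told apart. Both IFNγ+ libraries were wide, so values within the narrow and within the wide libraries are given beside the main results. For lung IL-4+ over LN IL-4+ cells these values set 2 narrow libraries against 1 and 1 wide library against 1. Over IFNγ+ cells they set 1 wide library against 2. At least 1 side of each thus had no replicate, and no spread is given for them. All 6 CD4 T cell markers (Cd3e, Cd3d, Cd3g, Cd4, Zbtb7b, Trac) had a region at their start, at densities of 5.75 to 26.2 normalised insertions per kb in every library. Of the markers of other lineages, 1 of 2 for CD8 T cells, 1 of 5 for B cells, 2 of 5 for myeloid cells, 2 of 3 for NK cells, 2 of 3 for epithelium and 2 of 3 for endothelium had such a region. Their densities were 2.95 to 7.31 for CD8 T cells, 10.4 to 17.2 for B cells and 0.898 to 12.1 for myeloid cells. For NK cells, epithelium and endothelium they were 1.92 to 7.60, 7.23 to 17.2 and 3.09 to 24.7. Each of these ranges overlapped that of the CD4 T cell markers. The myeloid list summed to 8.11 to 15.0 in LN IL-4+ libraries, 9.19 to 12.4 in lung IL-4+ libraries and 13.4 to 15.0 in IFNγ+ libraries. Its gene Itgam was at 5.39 and 7.77 in the IFNγ+ libraries against 0.898 to 2.89 in the other libraries. Spi1, the other myeloid gene with a start region, was not highest there. It had 7.20 and 8.01 in IFNγ+ libraries, 8.29, 8.96 and 9.53 in lung IL-4+ libraries and 12.1 and 6.32 in LN IL-4+ libraries. The regulatory T cell markers Foxp3 and Ikzf2 both had a start region. Their summed density was 61.3 and 64.7 in LN IL-4+ libraries, 46.4 to 54.9 in lung IL-4+ libraries and 58.3 and 62.3 in IFNγ+ libraries. By this sum and by Ikzf2 the lung IL-4+ libraries were lowest, but not by Foxp3. Foxp3 had 35.6 and 28.4 in LN IL-4+ libraries, 28.9, 30.5 and 28.4 in lung IL-4+ libraries and 27.2 and 28.03 in IFNγ+ libraries. The part of these markers in the results was not tested.

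Each of the 8 genes had a match to the κB consensus within 1 kb of its annotated start, where 24.9% of 21755 protein-coding gene starts had one. The match nearest to each start is printed because these are the letters that NF-κB dimers are known to read. Each was picked only among matches inside the accessible region at the start of its gene. Each line gives 30 bases of GRCm38, 5′ to 3′ on the strand of the gene, with the match in capitals. A match on either strand was counted, so the capitals may read as the reverse complement of the consensus.
Nfkb1, chr3:135691497-135691526 (-): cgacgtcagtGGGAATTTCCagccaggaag
Nfkb2, chr19:46304688-46304717 (+): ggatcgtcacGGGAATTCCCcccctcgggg
Rel, chr11:23771041-23771070 (-): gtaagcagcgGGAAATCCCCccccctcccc
Rela, chr19:5637888-5637917 (+): ggcctgcggcGGAATCTCCCccctccccgc
Relb, chr7:19629443-19629472 (-): cggcggcgccGGGGAATTCCgccgccccgc
Nfkbia, chr12:55492657-55492686 (-): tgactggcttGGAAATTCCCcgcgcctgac
Nfkbid, chr7:30422170-30422199 (+): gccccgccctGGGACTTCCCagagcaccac
Tnfaip3, chr10:19015516-19015545 (-): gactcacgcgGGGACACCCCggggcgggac

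The matches of Relb, Nfkbia, Nfkb1, Rel and Tnfaip3 lay within 250 bases of the start, at 19, 24, 36, 85 and 127 bases from it, a distance within which 8.19% of all gene starts had a match. Those of Nfkb2, Rela and Nfkbid lay 382, 419 and 452 bases downstream of the start. The region at the start of Nfkb2 held 6 matches and that of Nfkbia 5, and the other starts held 1 or 2, with overlapping matches on opposite strands or shifted by 1 base counted separately. In the RefSeq promoter table of GRCm38.p6, which gave 11 promoters for 6 of the 8 genes, 7 member promoters held a match in the 250 bases before the start, against 3.90% of all 32851 promoters. A match is a description of letters and not a measured binding site.

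Density at the gene starts was highest at Nfkbia, the gene of IκBα, the inhibitor that retains NF-κB dimers in the cytoplasm. Its start region (chr12:55491738-55492952) had 78.0 and 103 normalised insertions per kb in the LN IL-4+ libraries, 130, 125 and 132 in the lung IL-4+ libraries and 110 and 115 in the IFNγ+ libraries. The lung IL-4+ libraries lay above all others, and LN IL-4+ replicate 1 was lowest. Densities are averages over whole start regions, which ran from 1215 bp at Nfkbia to 6045 bp at Tnfaip3. The order of the genes may therefore depend on region length. The 250 bases before that start of Nfkbia are printed because its region had the highest density among the member starts, with the κB match in capitals.
Nfkbia, chr12:55492648-55492897 (-): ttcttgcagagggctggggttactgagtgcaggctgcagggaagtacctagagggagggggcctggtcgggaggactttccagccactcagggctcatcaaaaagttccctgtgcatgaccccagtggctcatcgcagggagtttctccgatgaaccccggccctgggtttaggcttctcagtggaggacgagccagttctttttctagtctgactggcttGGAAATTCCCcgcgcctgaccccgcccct

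The start of Rel, which encodes c-Rel, a subunit prominent in lymphocytes, was at nearly the same level in every library. It had 38.9 and 40.7 normalised insertions per kb in LN IL-4+ cells, 42.4, 42.6 and 41.9 in lung IL-4+ cells and 41.3 and 43.5 in IFNγ+ cells, and the lung populations overlapped each other, just above the lymph node libraries. The start of Nfkb1, the gene of p105 and its product p50, had 17.9 and 22.6 in LN IL-4+ cells, 22.8, 30.8 and 33.1 in lung IL-4+ cells and 19.3 and 21.3 in IFNγ+ cells. Each lung IL-4+ library lay above the others there, the wide library by little. The start of Tnfaip3, the gene of the ubiquitin-editing enzyme A20, had 24.5 and 29.7 in LN IL-4+ cells, 23.4, 35.6 and 38.8 in lung IL-4+ cells and 18.3 and 19.8 in IFNγ+ cells. Lung IL-4+ replicate 1 lay below both lymph node libraries and the other lung IL-4+ libraries above them, and both IFNγ+ libraries were lowest. At the starts of Rela, Relb, Nfkb2 and Nfkbid, which encode RelA, RelB, p100 with its product p52, and the nuclear inhibitor IκBNS, densities over all libraries ranged from 16.6 to 32.1, 40.7 to 54.8, 36.2 to 60.1 and 18.9 to 34.9, in that order.

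**Figure D1:**
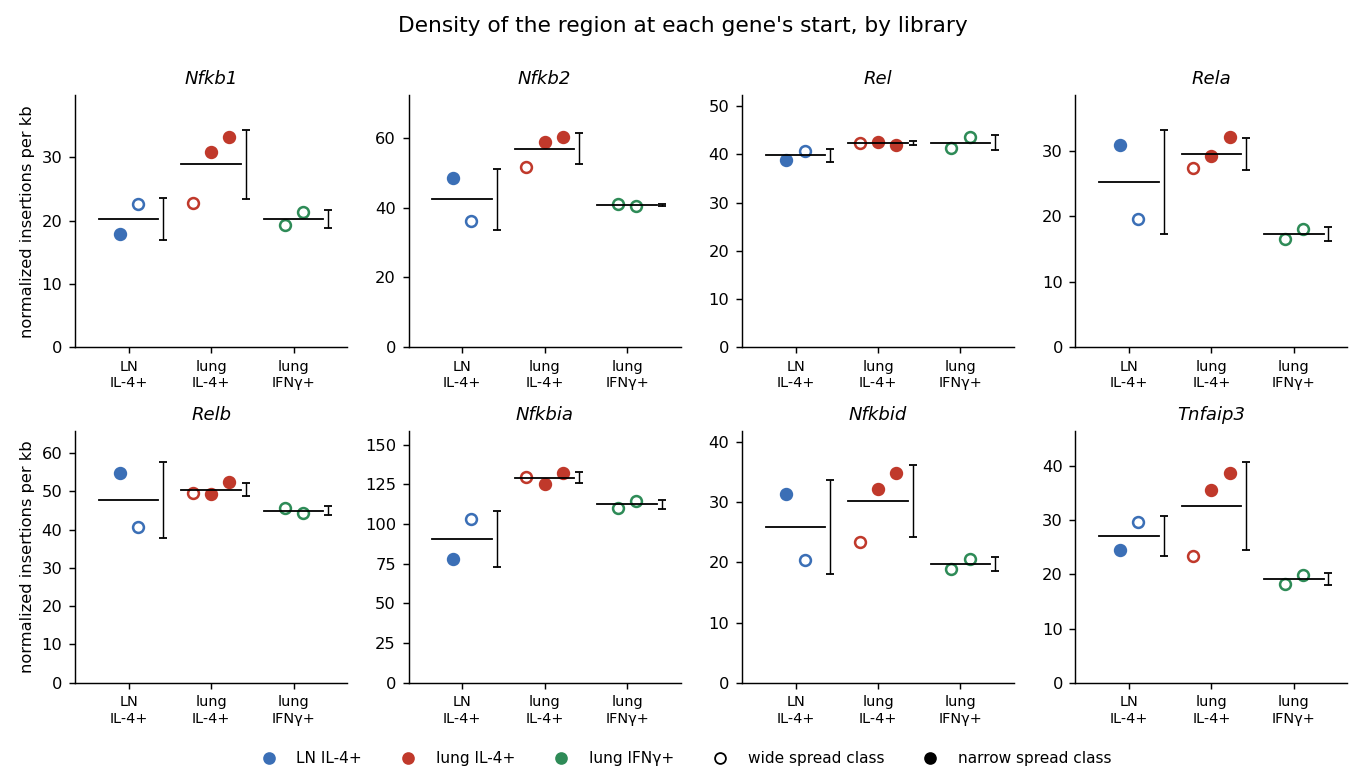
Density at the start region of each member (vertical axis, normalised insertions per kb, from 0) in the 7 libraries (points; filled for narrow and open for wide libraries, black line and bar for the mean ± SD of a population). Nfkbia reached the highest level of the 8, with lung IL-4+ libraries at 125 to 132, and Rel stayed between 38.9 and 43.5 in all libraries.

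The members were covered by regions of the table to very different extents, counting every region whatever its density. Regions took up 78.2% of the Nfkb1 locus, which ranked it 17th of 17044 protein-coding loci with a region, 74.3% of the Tnfaip3 locus (33rd) and 67.6% of the Nfkbia locus (58th). They took up 58.5% at Nfkb2, 44.2% at Rel, 44.1% at Nfkbid, 18.4% at Relb and 17.1% at Rela. A single region of 19165 bp ran from within Tnfaip3 to beyond its 3′ end and was the 2nd longest of the whole table. Since these regions were merged from adjoining peaks, neighbouring regions of a locus are not independent.

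Lung IL-4+ cells had more insertions over the loci of Nfkb1, Tnfaip3 and Nfkbia than either of the other populations. Nfkb1 had a density over its regions of 6.35 and 5.53 normalised insertions per kb in LN IL-4+ cells, 9.19, 12.6 and 14.1 in lung IL-4+ cells and 5.85 and 6.45 in IFNγ+ cells. All 3 lung IL-4+ libraries lay above the other 4, and the LN IL-4+ and IFNγ+ libraries overlapped. On the log2 scale the sum over the Nfkb1 locus in lung IL-4+ cells exceeded that in LN IL-4+ cells by 0.99 (1.99-fold, exact permutation p = 0.1, two-sided, the smallest that 3 against 2 libraries allow), with 1.07 within the narrow and 0.73 within the wide libraries. Against IFNγ+ cells it was 0.94 higher (1.92-fold, exact permutation p = 0.1), and 0.58 higher within the wide libraries.

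Tnfaip3 had locus densities of 11.7 and 13.8 in LN IL-4+ cells, 17.4, 24.5 and 25.4 in lung IL-4+ cells and 11.1 and 11.6 in IFNγ+ cells. Nfkbia had 16.2 and 18.7 in LN IL-4+ cells, 23.8, 30.3 and 35.0 in lung IL-4+ cells and 18.3 and 18.3 in IFNγ+ cells. For both genes the lung IL-4+ libraries lay above all others, and the wide lung IL-4+ library was the lowest of the 3. Over LN IL-4+ cells the locus sum of Tnfaip3 was 0.80 higher on the log2 scale (1.09 within narrow and 0.33 within wide libraries) and that of Nfkbia 0.75 higher (1.01 and 0.34), each with an exact permutation p of 0.2. Over IFNγ+ cells the differences were 0.96 for Tnfaip3 (exact permutation p = 0.1, 0.61 within the wide libraries) and 0.68 for Nfkbia (exact permutation p = 0.2, 0.38 within the wide libraries).

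Lung IL-4+ libraries lay above both IFNγ+ libraries at all 8 loci, where 24.8% of 17044 protein-coding loci did so. Against LN IL-4+ libraries they did so at 3 loci, Nfkb1, Nfkbia and Tnfaip3, with 7.88% of all loci. Ranked by the log2 difference from highest to lowest over the 17044 loci, Nfkb1, Tnfaip3 and Nfkbia stood 240th, 389th and 443rd for lung IL-4+ over LN IL-4+ cells. Tnfaip3 and Nfkb1 stood 234th and 246th for lung IL-4+ over IFNγ+ cells. Both comparisons use the same lung IL-4+ libraries.

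At the other 5 loci the values moved with the class of the library. The sums of Nfkb2, Rela, Nfkbid, Relb and Rel were higher in all 3 narrow libraries than in all 4 wide libraries, by 1.01, 0.84, 0.63, 0.28 and 0.20 on the log2 scale. At Nfkb1, Tnfaip3 and Nfkbia the mean of the narrow libraries was also higher, by 0.66, 0.55 and 0.39, but there the classes overlapped. Nfkb2 had locus densities of 14.3 and 6.73 in LN IL-4+ cells, 10.4, 16.9 and 19.6 in lung IL-4+ cells and 8.44 and 8.19 in IFNγ+ cells. Its difference between lung IL-4+ and IFNγ+ cells was 0.86 on the log2 scale (exact permutation p = 0.2) and 0.32 within the wide libraries. Rela had 17.9 and 9.11 in LN IL-4+ cells, 11.9, 15.7 and 16.3 in lung IL-4+ cells and 7.88 and 8.73 in IFNγ+ cells, a difference of 0.81 over IFNγ+ cells (exact permutation p = 0.1) and 0.52 within the wide libraries. The 2 LN IL-4+ libraries, 1 of each class, lay on either side of the lung IL-4+ libraries at Rela. At Relb, Rel and Nfkbid the same differences over IFNγ+ cells were 0.19, 0.22 and 0.57, and 0.12, 0.05 and 0.20 within the wide libraries.

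For lung IFNγ+ against LN IL-4+ cells, no member locus had both IFNγ+ libraries above both lymph node libraries, where 21.2% of all loci did. At Rel, Rela and Tnfaip3 both IFNγ+ libraries lay below both LN IL-4+ libraries, as at 30.2% of all loci, by 0.06, 0.62 and 0.17 on the log2 scale. With 2 against 2 libraries the smallest exact permutation p is 0.33, so no locus could pass a threshold of 0.05.

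**Figure D2:**
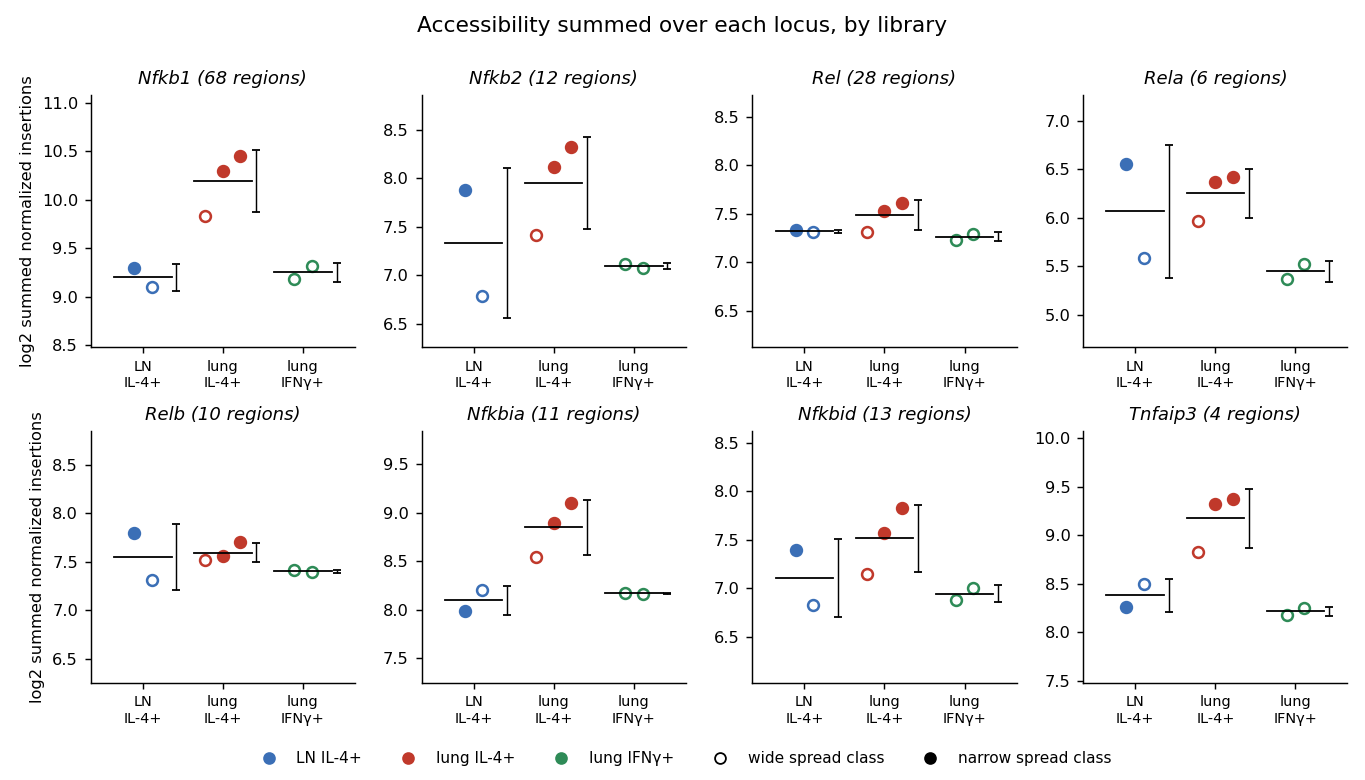
Summed normalised insertions over the regions of each member (vertical axis, log2 scale) in the 7 libraries (points; filled for narrow and open for wide libraries, black line and bar for the mean ± SD of a population). At Nfkb1, Nfkbia and Tnfaip3 the 3 lung IL-4+ libraries lie above the other 4, and at Nfkb2, Rela, Relb, Rel and Nfkbid all filled points lie above all open points.

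Region by region, lung IL-4+ cells rose over LN IL-4+ cells at Nfkb1. With limma over all 113820 regions and calls at 3-fold or more with a Benjamini-Hochberg adjusted p under 0.05, 3 of the 152 member regions (1.97%) were called higher in lung IL-4+ cells, where 1.05% of all regions were. All 3 lay in Nfkb1. No member region was called higher in LN IL-4+ cells, where 0.695% of all regions were, and 0 had an unadjusted p below 0.05 with that fold (1.88% of all regions), a rule that 20 member regions (13.2%), 18 of them in Nfkb1, passed in the other direction (2.13% of all regions). Without the fold threshold, 8 member regions (5.26%) were higher in lung IL-4+ cells, 7 in Nfkb1 and 1 in Tnfaip3, against 1.88% of all regions. The 3 calls became 1 with log2(density + 1), which called 0.64% of all regions higher in lung IL-4+ cells. They became 16 with the library class as a covariate, which called 2.14% of all regions higher there. Without lung IL-4+ replicate 1, 2 or 3 they became 11, 2 or 1, with 0.814%, 0.22% or 0.717% of all regions.

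The 3 called regions had their centres 13310, 49825 and 89602 bases from the start of the gene, which is 106893 bases long. In the region chr3:135640176-135643269, in an intron, the log2 densities were 2.68 and 2.49 in LN IL-4+ cells, 4.23, 4.72 and 4.30 in lung IL-4+ cells and 3.10 and 3.35 in IFNγ+ cells. In chr3:135600583-135603307 they were 3.09 and 3.06 in LN IL-4+ cells, 4.51, 4.76 and 5.02 in lung IL-4+ cells and 3.73 and 3.78 in IFNγ+ cells. In both regions the 3 populations did not overlap, with lung IL-4+ cells highest, IFNγ+ cells between and LN IL-4+ cells lowest. The log2 fold changes of lung IL-4+ over LN IL-4+ cells were 1.83 ± 0.24 (SE, limma adjusted p = 0.0059) and 1.69 ± 0.21 (adjusted p = 0.0050). Within the narrow libraries they were 1.83 and 1.80, and within the wide libraries 1.74 and 1.45. Over IFNγ+ cells they were 1.19 (adjusted p = 0.062) and 1.01 (adjusted p = 0.071), which did not pass.

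The third called region, chr3:135678033-135678442 in an intron, rested on few counts, with 17 to 96 rebuilt insertions per library. Its log2 densities were 0.67 and 0.32 in LN IL-4+ cells, 2.12, 2.46 and 2.70 in lung IL-4+ cells and 1.44 and 1.91 in IFNγ+ cells, again with no overlap between populations. The log2 fold change over LN IL-4+ cells was 1.93 ± 0.42 (SE, limma adjusted p = 0.037), with 1.91 within the narrow and 1.80 within the wide libraries. Over 16 other settings of the fit it was called in 5, while the regions at 135640176 and 135600583 were called in 14 and 12.

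The other 4 Nfkb1 regions past the adjusted p alone included the most accessible region of the gene, chr3:135604141-135605052. It had log2 densities of 3.76 and 4.41 in LN IL-4+ cells, 5.74, 5.42 and 5.70 in lung IL-4+ cells and 4.70 and 4.79 in IFNγ+ cells, again in 3 separate groups, and a log2 fold change of 1.53 (limma adjusted p = 0.0073, 1.79 within narrow and 1.33 within wide libraries). The region beside it, chr3:135603535-135604128, had a log2 fold change of 1.41 (adjusted p = 0.048), and those at chr3:135657944-135659137 and chr3:135628018-135631486 had 1.39 (adjusted p = 0.036) and 1.25 (adjusted p = 0.042). The regions from 135600583 to 135605052 lie within 1 kb of the annotated starts of short internal transcripts of Nfkb1, with centres 86951 to 89602 bases from the start of the gene. At the start of Nfkb1 itself the log2 fold change was 0.51.

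Windows of the 3 called regions and of the most accessible region are printed because these regions showed the difference between lung and lymph node by the test or at the highest level. They are 200 bases each of GRCm38, on the minus strand of the genome, which is the strand of the gene, with matches to κB and to AP-1 (TGANTCA) in capitals.
Nfkb1 intron, chr3:135640259-135640458 (-): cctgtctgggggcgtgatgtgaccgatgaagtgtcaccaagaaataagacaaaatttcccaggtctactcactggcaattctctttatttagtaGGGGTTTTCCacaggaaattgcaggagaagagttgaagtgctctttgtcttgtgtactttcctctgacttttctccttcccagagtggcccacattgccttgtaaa
Nfkb1 internal, chr3:135601845-135602044 (-): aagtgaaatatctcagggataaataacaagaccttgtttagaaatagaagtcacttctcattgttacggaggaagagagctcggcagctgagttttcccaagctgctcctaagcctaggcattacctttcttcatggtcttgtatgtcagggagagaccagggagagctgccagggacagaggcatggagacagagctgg
Nfkb1 intron, chr3:135678138-135678337 (-): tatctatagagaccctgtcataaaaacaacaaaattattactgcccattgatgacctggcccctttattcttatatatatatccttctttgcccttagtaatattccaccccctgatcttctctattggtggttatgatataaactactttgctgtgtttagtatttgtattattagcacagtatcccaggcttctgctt
Nfkb1 internal, chr3:135604387-135604586 (-): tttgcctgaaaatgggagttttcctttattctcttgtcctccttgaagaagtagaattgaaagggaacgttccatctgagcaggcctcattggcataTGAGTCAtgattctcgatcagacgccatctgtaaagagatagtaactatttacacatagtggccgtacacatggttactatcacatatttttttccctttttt

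The region at 135640176 held 2 κB matches and 1 AP-1 match over its whole length, the region at 135604141 held 3 AP-1 matches, and those at 135600583 and 135678033 held neither. Over the 99.3 kb of Nfkb1 regions there were 8 κB matches, or 0.0806 per kb, against 0.175 per kb in all regions. The regions of Nfkb2, Nfkbia and Nfkbid had 0.610, 0.636 and 0.588 per kb, with overlapping matches counted separately. The start regions of these genes were 62.5%, 69.5% and 54.7% G or C, and that of Nfkb1 was 49.2%. Base composition was not accounted for. A κB match lay in 6 of the 68 Nfkb1 regions over their full length, and in 11577 of all 113820 regions. The central 300 bases are only a part of a long merged region. In them, 0 of 68 Nfkb1 regions held a κB match, where 4.75% of all regions did. The GATA consensus (AGATAA), read by the Th2 factor Gata3, was in 15 of 68 (22.1%), against 15.2% of all regions. AP-1 was in 7 (10.3%), against 13.0%. The NFAT core (TGGAAAA) was also in 7 (10.3%), where 7.16% of all regions had it. The Runx consensus (AACCACA) was in 5 of the 68 windows (7.35%), against 11.0% of all. The T-box consensus (GGTGTGA), read by the Th1 factor T-bet, was in 5 as well (7.35%), against 4.89%. These shares are descriptions, and the absence of a match says only that these letters are not in the window.

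**Figure D3:**
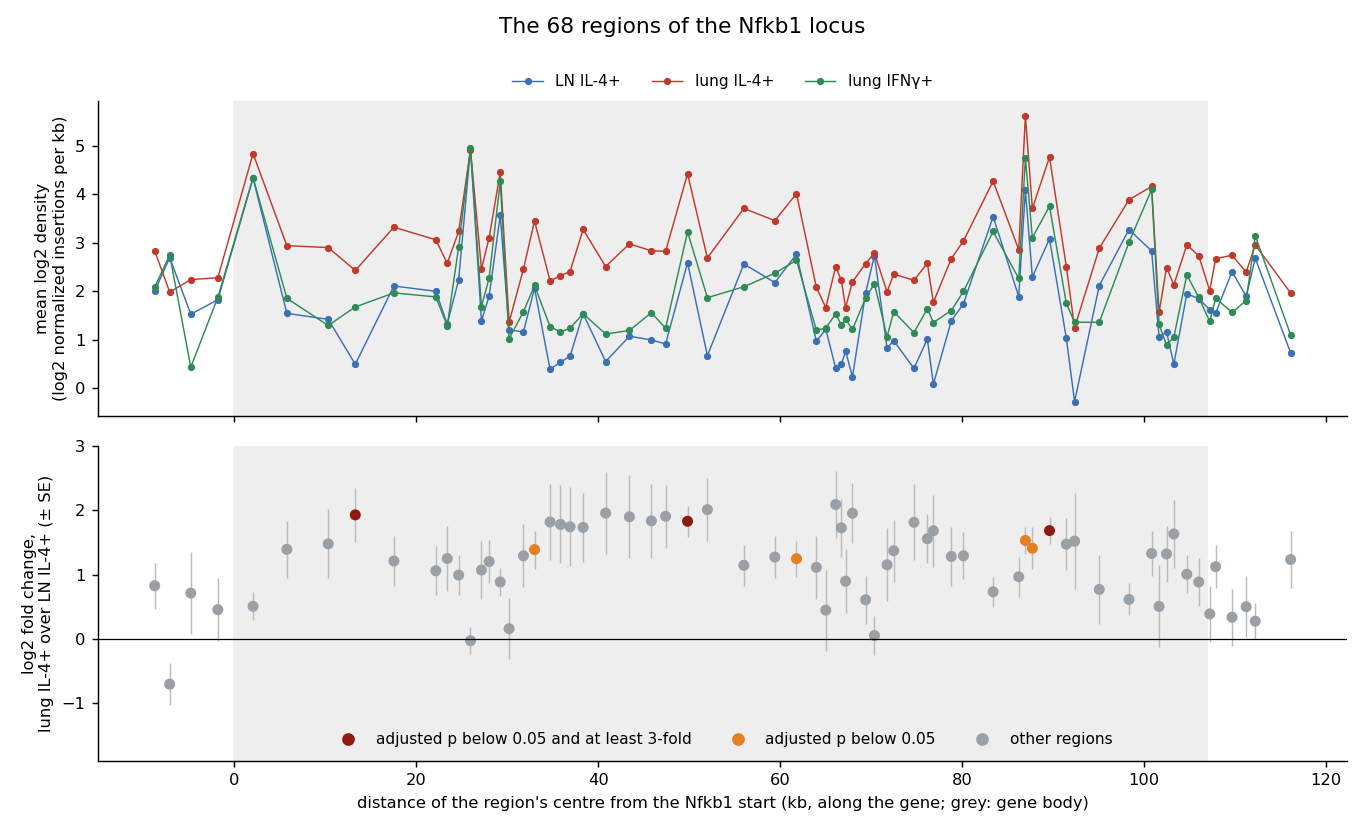
The Nfkb1 locus, with the distance of each of its 68 regions from the gene start on the horizontal axis (kb, along the gene, gene body in grey). The upper panel shows the mean log2 density of each population and the lower panel the log2 fold change of lung IL-4+ over LN IL-4+ cells ± SE, with 66 of 68 regions above 0 and the called regions in the body of the gene.

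The difference ran along the whole Nfkb1 locus. Of its 68 regions, 66 had a positive log2 fold change in lung IL-4+ over LN IL-4+ cells, with a median of 1.25, where the median of all 113820 regions was -0.03. In 50 of them (73.5%) the 3 lung IL-4+ libraries lay above both LN IL-4+ libraries, where 13.6% of all regions did so. The exceptions were few. The intronic region chr3:135664941-135666210, chosen after its values were seen for being nearly as accessible as the most accessible one, had log2 densities of 4.60 and 5.28 in LN IL-4+ cells, 4.91, 4.87 and 4.95 in lung IL-4+ cells and 4.94 and 4.95 in IFNγ+ cells. The populations overlapped there, with a log2 fold change of -0.03. Upstream of the gene, chr3:135698407-135698850 had 2.50 and 2.88 in LN IL-4+ cells, 1.80, 1.84 and 2.31 in lung IL-4+ cells and 2.89 and 2.60 in IFNγ+ cells, and lung IL-4+ cells were the lowest there (-0.71, limma adjusted p = 0.33).

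At Tnfaip3 the region that passed was the 19165 bp one, chr10:18990585-19009749. Its log2 densities were 2.96 and 3.21 in LN IL-4+ cells, 4.01, 4.44 and 4.44 in lung IL-4+ cells and 3.21 and 3.23 in IFNγ+ cells, and the lung IL-4+ libraries lay above all others. The log2 fold change over LN IL-4+ cells was 1.21 ± 0.23 (SE, limma adjusted p = 0.024), under the 3-fold threshold, with 1.48 within the narrow and 0.80 within the wide libraries. Over IFNγ+ cells it was 1.08 (adjusted p = 0.074). The region held 2 κB and 4 AP-1 matches, and the window with 1 of each is printed because it is the place in this long region where both occur together, with the matches in capitals.
Tnfaip3, chr10:19008715-19008914 (-): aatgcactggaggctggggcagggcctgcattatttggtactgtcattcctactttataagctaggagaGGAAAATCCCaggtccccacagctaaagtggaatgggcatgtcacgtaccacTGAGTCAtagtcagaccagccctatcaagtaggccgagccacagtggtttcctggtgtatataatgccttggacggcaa

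**Figure D4:**
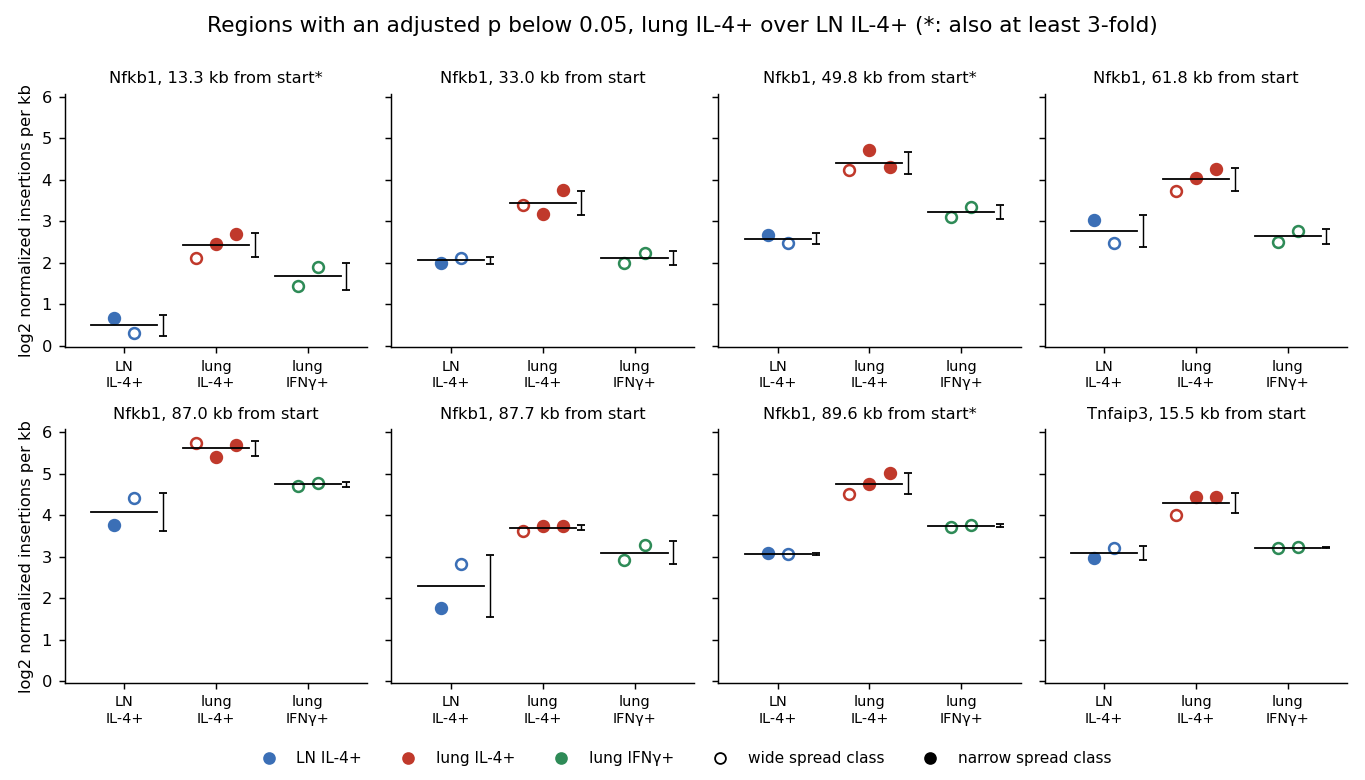
Log2 normalised insertions per kb (vertical axis) in the 7 libraries (points; filled for narrow and open for wide libraries, black line and bar for the mean ± SD of a population) of the 8 member regions with an adjusted p below 0.05 for lung IL-4+ over LN IL-4+ cells, with the 3 called ones starred. In each panel the 3 lung IL-4+ libraries lie above both LN IL-4+ libraries.

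Among the other inhibitor regions, 2 of Nfkbia were near the threshold. The region running up to the 3′ end of Nfkbia, chr12:55485665-55489424, had log2 densities of 4.00 and 4.52 in LN IL-4+ cells, 4.86, 5.36 and 5.55 in lung IL-4+ cells and 4.47 and 4.36 in IFNγ+ cells (limma adjusted p = 0.056 over LN IL-4+ cells). The region downstream of it, chr12:55480152-55485434, had 2.60 and 2.03, then 3.18, 3.87 and 4.34, then 2.04 and 1.96 in the same order, and its lowest adjusted p was that over IFNγ+ cells (log2 fold change 1.79, limma adjusted p = 0.061). In both the lung IL-4+ libraries lay above all others, without passing the test. Both regions were picked as the lowest adjusted p of the gene in a comparison, after their values were seen. A smaller downstream region, chr12:55479549-55479949, had the largest log2 fold change of a non-overlapping inhibitor region over LN IL-4+ cells, 2.05 (adjusted p = 0.12). Nfkbid had 8 of 13 regions with all lung IL-4+ libraries above the LN IL-4+ libraries (13.6% of all regions), with a lowest limma adjusted p of 0.11.

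Over all 8 genes, 72 of the 152 member regions (47.4%) had all lung IL-4+ libraries above both LN IL-4+ libraries, where 13.6% of all regions did, and 50 of the 72 were in Nfkb1. In 3 regions (1.97%) the LN IL-4+ libraries were the higher ones, where 14.3% of all regions were. These were chr11:23764818-23765218 in an intron of Rel, with a log2 fold change of -1.25 (limma adjusted p = 0.18), the region upstream of Nfkb1 given above, and chr7:19603793-19604722 downstream of Relb, with -0.12 (adjusted p = 0.80). The Relb region lies at the start of the neighbouring gene Clasrp. The median log2 fold change was 0.75 over the 152 member regions, 0.69 for Nfkbid, 0.72 for Nfkbia and 0.75 for Nfkb2, and it was 0.30 for Rel, 0.33 for Rela, 0.35 for Tnfaip3 and -0.01 for Relb.

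Against lung IFNγ+ cells, lung IL-4+ cells had higher values at most member regions, but no region was called. In limma no member region was called in either direction, where 0.108% of all regions were called higher in lung IL-4+ cells and 0.387% higher in IFNγ+ cells. Where only 3-fold and an unadjusted p below 0.05 were asked for, 15 member regions (9.87%) were higher in lung IL-4+ cells, against 1.44% of all regions, and 0 were higher in IFNγ+ cells, against 1.93%. The 15 were 7 of Nfkb1, 3 of Nfkbia, 2 of Nfkb2, 2 of Relb and 1 of Tnfaip3. The count of calls was 21 with limma's library weights, which called 2.74% of all regions higher in lung IL-4+ cells. It was 3 when these 2 populations were fitted alone (0.258% of all regions) and 6 without lung IL-4+ replicate 1 (0.23%). It stayed at 0 with log2(density + 1) (0.0764%), voom on rebuilt counts (0.221%) and the library class as a covariate (0.501%). Without lung IL-4+ replicate 2 or 3 it was also 0, with 0.0% and 0.00439% of all regions. In 96 member regions (63.2%) all lung IL-4+ libraries lay above both IFNγ+ libraries, where 19.4% of all regions did, and in 4 (2.63%) below them, where 21.2% did. The median log2 fold change of the 152 regions was 0.84, and that of all regions -0.01.

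The 3 largest non-overlapping differences lay at Relb, Nfkbia and Nfkb2. The Relb intron region chr7:19626511-19626911 had log2 densities of 1.33, 3.25 and 2.87 in lung IL-4+ cells and -1.12 and 0.54 in IFNγ+ cells (log2 fold change 2.77 ± 0.78, SE, limma adjusted p = 0.16). The region upstream of Nfkbia, chr12:55493870-55494559, had 0.87, 2.85 and 2.96 against -0.60 and 0.05 (2.50 ± 0.83, adjusted p = 0.22), and the one downstream of Nfkb2, chr19:46319986-46320579, had 1.56, 3.50 and 3.05 against 0.94 and 0.40 (2.03 ± 0.61, adjusted p = 0.18). In all 3 the wide lung IL-4+ library lay between the narrow ones and the IFNγ+ libraries, and within the wide libraries the differences were 1.62, 1.14 and 0.89. The LN IL-4+ libraries, with 2.03 and 0.16, 2.61 and 0.09, and 2.31 and 1.04, showed a gap of the same direction between their narrow and their wide library.

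The largest of the 4 differences in the other direction was at chr7:30412658-30413058, at -8874 bases from the start of Nfkbid, with 2.02 and 2.21 in IFNγ+ cells and 0.76, 1.16 and 1.15 in lung IL-4+ cells (log2 fold change -1.09, limma adjusted p = 0.38). It lies at the start of Tyrobp, a signalling adaptor of NK and myeloid cells, and not at a start of Nfkbid. The others by size were the Rel intron region at 23764818 (-0.76) and the region upstream of Nfkb1 at 135698407 (-0.76), and the smallest was upstream of Nfkbia at chr12:55495050-55495589 (-0.19). Altogether 9 member regions lay within 1 kb of the start of another protein-coding gene, 3 of Psd, 2 of Tyrobp, 2 of Hcst, 1 of Clasrp and 1 of Aplp1, and 1 of those at Hcst is the start region of Nfkbid itself.

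Between lung IFNγ+ cells and LN IL-4+ cells the median fold changes of the members lay on both sides of 0, without a call. In limma 0 member regions were called (2 without LN IL-4+ replicate 2), where 2.17% of all regions were called higher in IFNγ+ cells and 0.862% higher in LN IL-4+ cells. At an unadjusted p below 0.05 with at least a 3-fold change, 1 region was higher in IFNγ+ cells (4.4% of all regions) and 1 in LN IL-4+ cells (2.92%). The higher one, chr7:30413135-30413535, is the second region at Tyrobp (log2 fold change 1.77, limma adjusted p = 0.19). The lower one, chr12:55497741-55498141, upstream of Nfkbia, had 0.27 and 1.24 in IFNγ+ cells against 2.53 and 2.53 in LN IL-4+ cells and 1.65, 3.09 and 2.73 in lung IL-4+ cells (-1.77, adjusted p = 0.10). The libraries did not overlap in 34 regions (22.4%) with IFNγ+ cells higher, against 26.5% of all regions, and in 24 (15.8%) with LN IL-4+ cells higher, against 27.2%. Of the 34, 24 were in Nfkb1, whose median log2 fold change was 0.30, where that of all 152 was -0.04. The medians of Relb, Rela, Nfkb2 and Tnfaip3 were -0.95, -0.76, -0.64 and -0.54, with 0 of 10, 0 of 6, 2 of 12 and 1 of 4 regions above 0, and those of Nfkbia, Rel and Nfkbid were -0.21, -0.21 and 0.01. Of these genes, Relb, Rela, Nfkb2, Rel and Nfkbid had locus sums that were higher in all narrow than in all wide libraries, and both IFNγ+ libraries were wide.

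**Figure D5:**
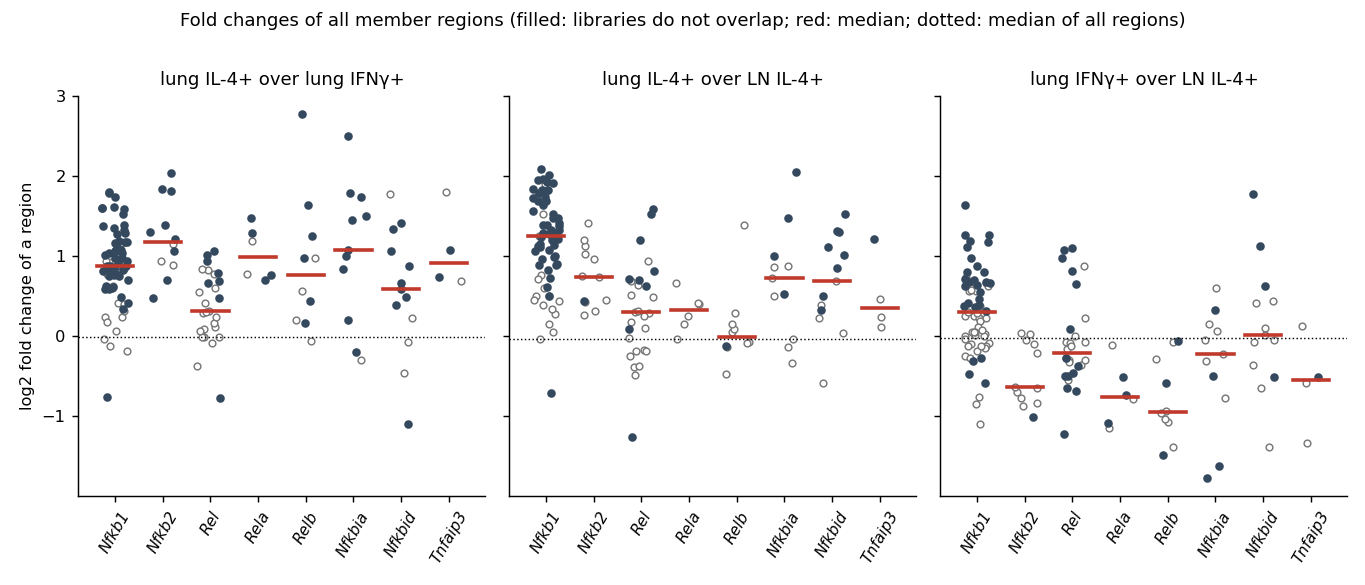
Log2 fold changes of all 152 member regions (points) by gene in the 3 comparisons, filled where the libraries of the populations do not overlap, with the median of a gene in red and that of all regions dotted. Most points lie above 0 for lung IL-4+ cells over IFNγ+ cells (136 of 152) and over LN IL-4+ cells (131 of 152), and 73 of 152 do so for IFNγ+ over LN IL-4+ cells.

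The members did not share a single pattern over the 7 libraries. Among the 39 other members and pathway genes compared, the locus sum most like that of Nfkbia was Tnfaip3 (Pearson r = 0.97 over 7 libraries), and that of Nfkb2 was Nfkbid (r = 0.98). For Nfkb1 it was Zc3h12a (0.97), an RNase that degrades inflammatory transcripts, for Rel Birc3 (0.97), for Rela Map3k14 (0.96) and for Relb Otud7b (0.97). Nfkbia and Relb were the least alike of the members (r = 0.30). The 7 points share the depth and class of their libraries, and these values are descriptions.

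Of 32 other NF-κB pathway genes, which held 438 regions, 6 had a called region in a comparison and 26 had none. No region was called between lung IL-4+ and IFNγ+ cells. Over LN IL-4+ cells, lung IL-4+ cells were higher at 2 regions of Ikbkb, the kinase that phosphorylates IκB proteins, with log2 fold changes of 1.77 (limma adjusted p = 0.036) and 1.99 (adjusted p = 0.033), and at 1 region of Malt1, the paracaspase of the antigen receptor complex, with 1.77 (adjusted p = 0.0041). Both Ikbkb regions lay upstream of the gene start and the Malt1 region beyond the gene end. Whether they belong to a neighbouring gene was not tested. The log2 density of the Malt1 region was 2.86 and 2.84 in LN IL-4+ cells, 4.39, 4.60 and 4.86 in lung IL-4+ cells and 4.35 and 4.42 in IFNγ+ cells, so both lung populations lay above the lymph node. The 3 regions were 0.685% of the 438, against 1.05% of all regions called higher in lung IL-4+ cells. By locus sum, lung IL-4+ libraries lay above LN IL-4+ libraries at 7 of the 32 genes, against 7.88% of all loci. Below the LN IL-4+ libraries they lay at 0, against 17.7%. They lay above IFNγ+ libraries at 16 and below them at 5, against 24.8% and 28.8% of all loci. Within the wide libraries the differences at the 16 ran from 0.06 (Malt1) to 0.47 (Tnip1) on the log2 scale. At the 7 they ran from 0.12 (Birc3) to 0.44 (Traf3) within the wide libraries. Within the narrow libraries they ran from 0.09 (Traf3) to 0.61 (Birc3). By locus sum, higher values in lung IL-4+ cells were thus not limited to the 8 members. The part of the library class in this was not tested.

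Lung IFNγ+ cells over LN IL-4+ cells had 6 regions called higher, 2 of Tnip3, which encodes a partner of A20, and 1 each of Ikbkb, Bcl10, Traf3 and Otulin, and 2 called lower, 1 each of Traf3 and Otulin, which is 1.37% and 0.457% of the 438 regions against 2.17% and 0.862% of all. Traf3 and Otulin, brakes of the noncanonical and the linear ubiquitin arm, thus had regions in both directions. The higher region of Otulin, like that of Ikbkb, lay upstream of the start of its gene. The Ikbkb region chr8:22714694-22715144 was the only region of the 32 genes called higher in both lung populations, with 0.60 and -0.28 in LN IL-4+ cells, 2.43, 2.02 and 2.00 in lung IL-4+ cells and 2.84 and 3.08 in IFNγ+ cells. The median log2 fold change over the 438 regions was 0.31 for lung IL-4+ over IFNγ+ cells and 0.10 for lung IL-4+ over LN IL-4+ cells, below the medians of the 152 member regions.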

How the data were processed

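The authors trimmed and mapped paired reads to GRCm38 (mm10), removed mitochondrial, low-quality and blacklisted reads, called summits per replicate, merged regions of uniform width over replicates and counted transposase insertions. Their submitters' processing notes name bcl2fastq, Bowtie2 2.3.2, MACS2 2.1.1, limma 3.38.3 and R 3.5.1. The deposited values are log2 insertions per kb, scaled to the library total and normalised by the authors with voom. Their sorted values nearly coincide between libraries once the region length is removed, so they are also quantile-normalised, a step the methods do not name, and a change shared by all regions cannot be seen in them. Read totals were not used here. Insertion counts were rebuilt from tied values and are lower bounds, which limits precision at regions of few counts.

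All 7 columns were used. limma 3.58.1 in R 4.3.3 (lmFit, eBayes with trend, 1 mean per population, 4 residual degrees of freedom, no pseudocount, no filter) was run over all 113820 regions with Benjamini-Hochberg adjustment within a comparison, after it was tested on simulated data. Locus sums added density times length over the regions of a gene and were compared by exact two-sided permutation. Coordinates are 1-based and annotation is GENCODE M21. Motifs were searched as consensus letters on both strands with Python 3.11.15, and promoters came from RefSeq.

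The members, the pathway list and the markers were chosen with earlier results of these data known. The results of 1 item of these lists are not reported here. Regions named were those called, the start and the most accessible region of each member, and per comparison and direction the 3 largest non-overlapping changes. Alternatives were a pseudocount, a filter, other scalings, 2 populations at a time, a replicate block, library weights, the library class, voom on rebuilt counts, other thresholds and flanks, and each library left out.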

Additional observations from a re-analysis of the deposited data

How the results depend on the processing

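No called region changed its direction under the alternatives run, while some locus differences whose populations overlapped changed sign. Called member regions for lung IL-4+ over LN IL-4+ cells numbered 3, where 1.05% of all regions were called higher in lung IL-4+ cells. They numbered 1 with log2(density + 1) (0.64%), 5 with voom on rebuilt counts (0.86%) and 16 with the library class as a covariate (2.14%). With 25 kb each side they numbered 5, and with no minimum fold change 8 (1.88%). For lung IL-4+ over IFNγ+ cells they numbered 0, and 1 with 25 kb each side. They numbered 3 with 2 populations at a time, which called 0.258% of all regions higher in lung IL-4+ cells. With library weights they numbered 21, where 2.74% of all regions were called higher. For IFNγ+ over LN IL-4+ cells they numbered 0, and 1 with the library class and 3 with 25 kb each side.

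Leaving out each library gave 1 to 11 calls for lung IL-4+ over LN IL-4+ cells. Omitting replicate 1 or 2 of the LN IL-4+ cells gave 7 or 5, omitting replicate 1 of the lung IL-4+ cells, the wide library, gave 11, and omitting their replicate 3 gave 1. For lung IL-4+ over IFNγ+ cells the range was 0 to 6, with 2 and 3 when replicate 1 or 2 of the LN IL-4+ cells was omitted and 6 when replicate 1 of the lung IL-4+ cells was. For IFNγ+ over LN IL-4+ cells it was 0 to 2, with 2 when LN IL-4+ replicate 2 was omitted and 1 when replicate 1 of the lung IL-4+ cells was. Where a population was left with 1 library, it was assumed to vary like the others. Without lung IL-4+ replicate 1, 0.814% of all regions were called higher in lung IL-4+ than in LN IL-4+ cells. Higher than in IFNγ+ cells were 0.23% of all regions in the same fit.

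No label says that a replicate number pairs libraries, and the libraries were treated as unpaired. The correlation of same-numbered deviations ranged from -0.54 to 0.06, the lowest between libraries of different classes. With a replicate block 0 member regions were called in each comparison, and of all regions 0 were called in lung IL-4+ over LN IL-4+ and over IFNγ+ cells and 468 higher and 88 lower in IFNγ+ over LN IL-4+ cells.

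With the mean of log2 densities in place of the log2 of the sum, the locus differences became 0.30 for Nfkb1, -0.050 for Rel, -0.73 for Rela, -0.78 for Relb and -0.37 for Nfkbia in IFNγ+ over LN IL-4+ cells, 0.31 for Rel, 0.68 for Nfkbia and 0.51 for Tnfaip3 in lung IL-4+ over LN IL-4+ cells, and 0.56 for Nfkbid in lung IL-4+ over IFNγ+ cells. With 25 kb each side Rel moved to 0.19 over IFNγ+ cells and to -0.019 in IFNγ+ over LN IL-4+ cells. With the gene body alone IFNγ+ over LN IL-4+ was -0.012 for Rel and -0.15 for Tnfaip3. Leaving out each library gave ranges of 0.077 to 1.17 for Nfkb2, -0.30 to 0.67 for Rela and -0.20 to 0.28 for Relb in lung IL-4+ over LN IL-4+ cells, and of -0.78 to 0.31 for Nfkb2 and -0.39 to 0.089 for Relb in IFNγ+ over LN IL-4+ cells. The cause of these shifts was not tested. Of the values of named regions, 382 kept their side of the threshold, 17 passed it anew and 17 no longer passed it.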
